A study of Mus musculus with 4 samples.

Results

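The 9 serotonin receptor genes described here are Htr1a, Htr1b, Htr1d, Htr2a, Htr2b, Htr2c, Htr3a, Htr4 and Htr7. They were taken by gene symbol from all probes of the array that are not controls, which gave 16 of 56605 probes and 9 of 26696 named genes. The members were chosen by family name together with the measured genotype difference of Htr2b, so the differences below describe these arrays and are not tests. RNA came from brainstem/cerebellum and from spinal cord of mice that the labels call MSA Tg and of wild-type mice, where MSA stands for multiple system atrophy, a disease with alpha-synuclein deposits in oligodendrocytes. All groups shared an age of 24 weeks and a mixed C57BL/6, 129 and C3H background. The sample titles carry the prefix PLP, which the labels do not spell out, and the labels name neither the transgene nor the cells that express it. They also do not say whether a sample was 1 animal or a pool, or whether both tissues came from the same animals. There was 1 array for each genotype in each tissue, 4 in all, so no difference has a replicate check and no p-value is given.

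Serotonin (5-hydroxytryptamine) reaches brainstem, cerebellum and spinal cord through axons of the raphe nuclei and acts on several families of receptors. Htr1 receptors couple to Gi and lower cyclic AMP, Htr2 receptors couple to Gq and release calcium through phospholipase C, Htr4 and Htr7 couple to Gs and raise cyclic AMP, and Htr3 receptors are ligand-gated cation channels. Htr2b is best known from heart valves, gut and lung vessels, and among brain cells it has been described in microglia.

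Values are log2 of the background-subtracted signal of a probe with the 75th percentile of its array set to 0. For a gene with several probes, the one with the highest mean over the 4 arrays stands for it. Where an array was not well above background, only a bound is given, formed from the lowest signal that was well above background on that array or the probe's own signal, whichever was higher. A difference is called when it, or its bound, reached 2-fold. Of 59305 spots that are not controls, between 59.2% and 64.0% were well above background on each array and 0 were saturated. Repeated spots within an array give the only error available: the SD of a difference between 2 spots ran from 0.09 for bright probes to 0.66 for the dimmest. It leaves out the spread between animals and between arrays. The wild-type spinal cord array was on another slide than the other 3, and its 75th percentile was at a signal of 678, against 410 to 458 on the others. Slide and genotype therefore cannot be told apart in spinal cord, whereas the brainstem/cerebellum comparison lies within 1 slide. The tissue labels were borne out by their defining markers: the summed signal of 8 cerebellar genes, in units of the 75th percentile, was 207 and 199 on the brainstem/cerebellum arrays against 5.65 and 9.62 on the spinal cord arrays, and that of 8 Hox genes of the cord was 0.41 and 0.36 against 20.6 and 35.5. In bulk tissue, fewer cells of a type and less RNA per cell cannot be told apart.

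Of the Htr2 receptors, Htr2b stood far above its wild-type level in both tissues of the transgenic mice. Its brighter probe lies on chromosome 1 at chr1:87995712-87995771 (mm9, minus strand), 1913 bases into the transcript, and the other at chr1:88007112-88007171, 613 bases in, so both lie in exons. Coding sequence and UTR were not separated here, since no annotation of that build was used. The second probe is printed because it is an independent reading of the same gene, with no bases in common with the first.

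The 60 bases of the second Htr2b probe, 5′ to 3′, as given by the deposited files, are these, with nothing marked in capitals:
Htr2b probe: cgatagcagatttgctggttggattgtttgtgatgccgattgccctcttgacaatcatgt

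On the first probe Htr2b had log2 values of -2.10 on transgenic and -6.30 on wild-type brainstem/cerebellum, and of 0.54 on transgenic and -5.65 on wild-type spinal cord. The underlying signals were 107.1 and 5.56, and 594 and 13.5. The transgenic spinal cord array was thus the highest and the transgenic brainstem/cerebellum array the next, while wild-type brainstem/cerebellum was not well above background. The wild-type spinal cord signal of 13.5 was close to the lowest signal called well above background on that array, 12.5. In brainstem/cerebellum Htr2b was at least 8.79-fold higher in the transgenic sample (log2 difference of at least 3.14). In spinal cord it was 72.7-fold higher (6.18, with an SD between 2 spots of 0.47), and 6 of 17014 genes measured on both arrays had a larger difference. That ranking leaves out genes with only a bound, among them Clca3a2, Apoc4 and Ear12, each at least 6.30 higher.

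The second probe had lower values: -4.42 and -6.75 in brainstem/cerebellum and -1.79 and -5.93 in spinal cord, with the transgenic array named first. Both wild-type arrays were below the background limit for this probe, so their order is not read. Its bounds were 0.81 in brainstem/cerebellum, at least 1.75-fold and short of the 2-fold limit, and 3.97 in spinal cord, at least 15.7-fold. Both probes thus placed the transgenic samples above wild type, and the size of the difference depended on the probe. A bound with wild type below background can only lie above 0, so the direction of the bounds is no check. Between the transgenic arrays, which share a slide, both probes were well above background, and spinal cord exceeded brainstem/cerebellum by 2.63 (6.20-fold) on the first probe and 2.64 (6.22-fold) on the second.

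**Figure D1:**
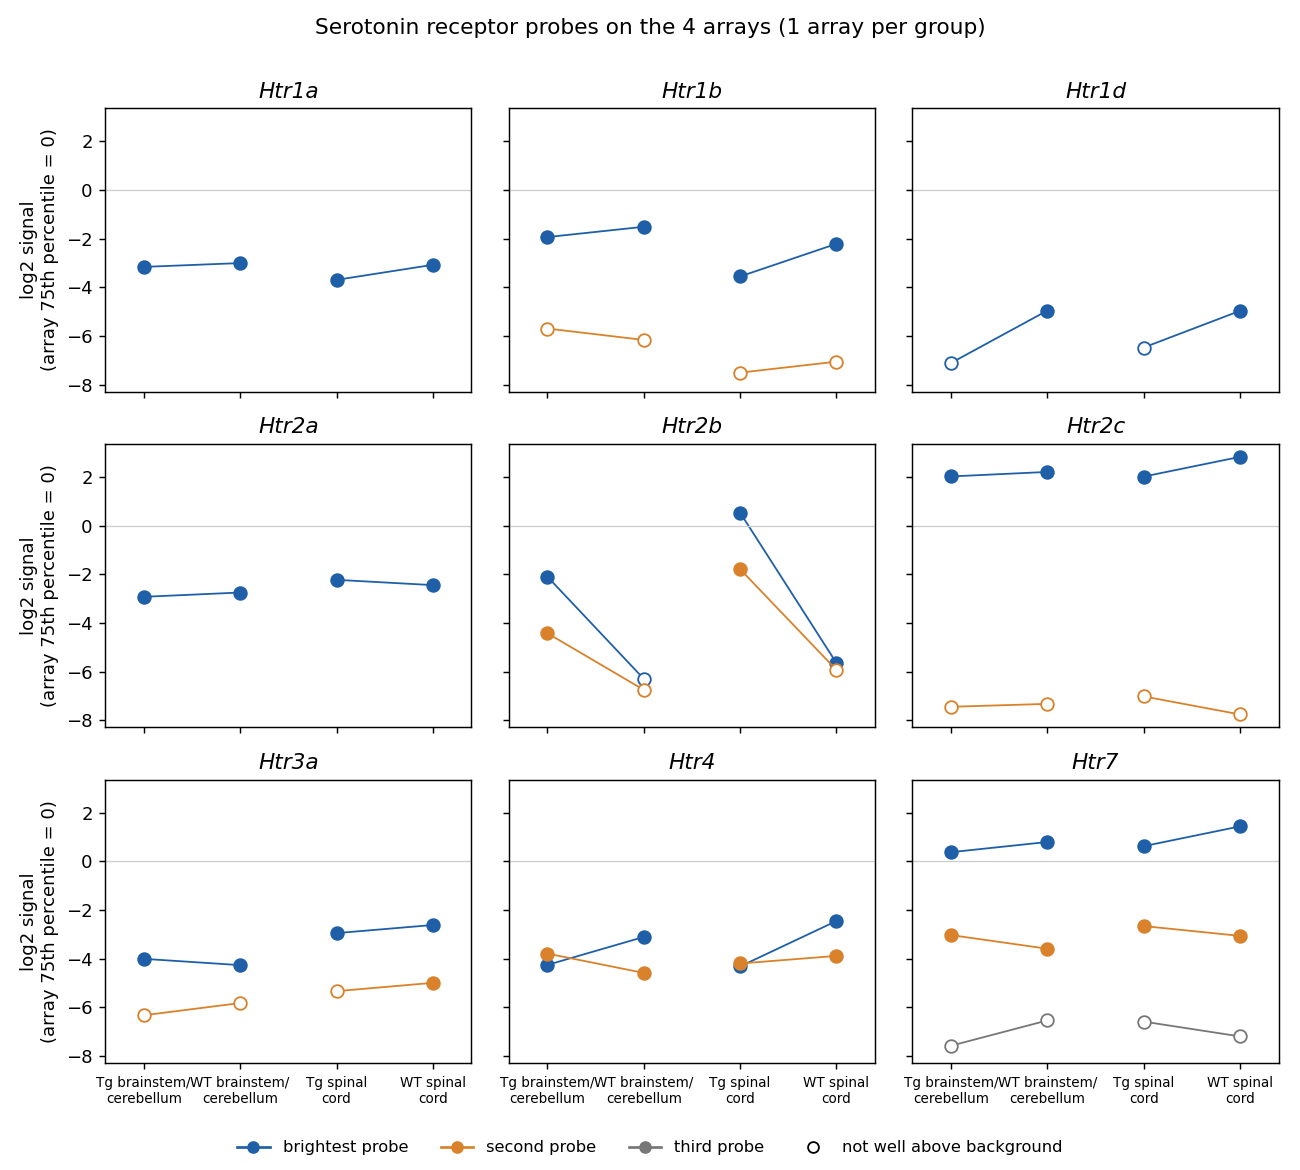
Log2 signal of all 16 probes of the 9 serotonin receptor genes on the 4 arrays, with each array's 75th percentile at 0; Tg is transgenic, WT is wild type, lines join the genotypes within a tissue, and there is 1 array per group, so no error bars. Open circles are not well above background. Both Htr2b probes are higher on the transgenic arrays, while the brightest Htr2c probe stays between 2.02 and 2.83 on all 4.

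The 250 bases before the RefSeq start of Htr2b and of Htr2c, its Gq-coupled relative, are printed. The 2 genes behaved differently on these arrays, and both windows hold a match to TGANTCA, the searched form of the AP-1 motif. They come from the RefSeq tables of build GRCm38.p6, 5′ to 3′ on the strand of the gene, at chr1:86111981-86112230 (minus) and chrX:146962263-146962512 (plus), and capitals mark motif matches.
Htr2b upstream: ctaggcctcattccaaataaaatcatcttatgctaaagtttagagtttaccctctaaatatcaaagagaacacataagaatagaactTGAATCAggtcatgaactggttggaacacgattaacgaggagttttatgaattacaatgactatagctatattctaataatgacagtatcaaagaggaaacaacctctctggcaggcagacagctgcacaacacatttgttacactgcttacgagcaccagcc
Htr2c upstream: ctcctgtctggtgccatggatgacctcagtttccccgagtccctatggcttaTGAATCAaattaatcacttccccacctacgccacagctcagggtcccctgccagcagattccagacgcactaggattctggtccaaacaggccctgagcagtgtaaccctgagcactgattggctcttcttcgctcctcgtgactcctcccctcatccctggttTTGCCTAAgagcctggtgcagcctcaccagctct

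Of 9 motifs searched on both strands, the Htr2b window held 1 match, AP-1 (TGANTCA), 163 bases before the start, and 6.75% of 32851 promoter windows of the same length hold that motif. The Htr2c window held AP-1 198 bases and C/EBP (TTGCNNAA, in 9.56% of windows) 34 bases before its start. No match in either window was found for the TATA box (TATAAA, 12.4%), PU.1 (GAGGAAGT, 2.44%), NF-kB (0.14%), CRE (TGACGTCA, 1.55%), ISRE (2.98%), the E-box (CACGTG, 6.02%) or the GC box (GGGCGG, 32.7%). GC content was 37.6% for Htr2b and 55.6% for Htr2c. Both AP-1 matches read TGAATCA, with A where the searched letters allow any base. Neither is a match to a form with C or G there. All matches given here are of letters and show no binding. Windows of 7 of the 9 members were searched: Htr3a had none, and Htr4 was left out of the search. Among these 7, AP-1 matched in those of Htr2b and Htr2c alone.

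Htr2c, the Gq-coupled receptor widespread in neurons and in choroid plexus, had values of 2.03 on transgenic and 2.21 on wild-type brainstem/cerebellum and of 2.02 on transgenic and 2.83 on wild-type spinal cord. Wild-type spinal cord was the highest, and the 2 transgenic arrays could not be separated at an SD of 0.09. The difference of transgenic minus wild type was -0.19 in brainstem/cerebellum and -0.81 (1.75-fold lower) in spinal cord, neither of which reached 2-fold. The 7 choroid plexus markers summed to 92.3 and 106 on the brainstem/cerebellum arrays and to 0.78 and 1.34 on the spinal cord arrays, where Ttr and Otx2 were below the background limit. Their part in the level of Htr2c was not tested. A second Htr2c probe was below background on all 4 arrays.

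Htr2a, the Gq-coupled receptor that classical hallucinogens act on, had values of -2.92 and -2.75 in transgenic and wild-type brainstem/cerebellum and of -2.22 and -2.44 in transgenic and wild-type spinal cord. Neighbours in this order lay within 2 SD of each other. The genotype differences were -0.18 and 0.22, each smaller than the SD between 2 spots of 0.24, and the second one turned to -0.17 when arrays were scaled on the spike-in controls. The 3 Htr2 genes thus held a called difference for Htr2b and none for Htr2a or Htr2c.

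Among the Gi-coupled receptors, Htr1b was lower in transgenic spinal cord. Htr1b, a release-limiting receptor on axon terminals, had values of -1.93 on transgenic and -1.51 on wild-type brainstem/cerebellum and of -3.55 on transgenic and -2.21 on wild-type spinal cord. The transgenic spinal cord array was the lowest and lay apart from the other 3. The genotype difference was -0.42 in brainstem/cerebellum and -1.34 in spinal cord, 2.54-fold lower, against an SD of 0.24. The call in spinal cord was lost under both normexp background corrections (-0.53 and -0.75) and with the mean of the probes (-0.90), which gave 0.02 in brainstem/cerebellum. It rests on 1 probe (chr9:81522512-81522571, mm9), because the other was below background on all 4 arrays.

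Htr1a, the receptor by which raphe neurons inhibit their own firing, had values of -3.16 and -3.00 in transgenic and wild-type brainstem/cerebellum and of -3.69 and -3.07 in transgenic and wild-type spinal cord. Only transgenic spinal cord lay more than 2 SD below its neighbour in this order. Its genotype differences of -0.16 and -0.62 did not reach 2-fold. Htr1d, a receptor also found on axon terminals, was measured on the wild-type arrays only, at -4.95 in brainstem/cerebellum and -4.96 in spinal cord. Both transgenic arrays were below the background limit, with signals of 3.32 and 4.61 against 14.1 and 21.7 on the wild-type arrays. The bounds, -0.45 and -0.32, are small because the wild-type signals themselves were near the limit.

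Htr3a, the subunit that every functional Htr3 channel contains, differed by tissue and not by genotype past 2-fold. Its values were -4.01 on transgenic and -4.27 on wild-type brainstem/cerebellum, and -2.95 on transgenic and -2.62 on wild-type spinal cord. Both spinal cord arrays were above both brainstem/cerebellum arrays, and within each tissue the genotypes lay within 2 SD. Spinal cord exceeded brainstem/cerebellum by 1.65 (3.14-fold) in wild type, across slides, and by 1.06 (2.08-fold) in the transgenic samples, within 1 slide. Both calls were lost under the normexp corrections (0.58 and 0.75 in wild type, 0.48 and 0.42 in the transgenic samples), and the second also with spike-in scaling (0.72). The genotype differences were 0.26 in brainstem/cerebellum, which turned to as little as -0.12 under the other scalings and corrections, and -0.33 in spinal cord. A second probe was well above background on wild-type spinal cord alone, at -4.996.

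Of the Gs-coupled receptors, Htr4 was lower in both transgenic tissues on its brighter probe, and its probes disagreed. Htr4, known for its part in gut motility and in hippocampal memory, had values of -4.26 on transgenic and -3.11 on wild-type brainstem/cerebellum and of -4.32 on transgenic and -2.45 on wild-type spinal cord for the probe 4459 bases into the transcript. Both transgenic arrays lay below both wild-type arrays. The differences were -1.15 (2.22-fold lower) and -1.87 (3.65-fold lower), each with an SD of 0.24, and 26 of 16725 genes had a lower value than Htr4 in brainstem/cerebellum.

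The other Htr4 probe, 624 bases into the transcript, had values of -3.79 and -4.59 in transgenic and wild-type brainstem/cerebellum and of -4.20 and -3.89 in transgenic and wild-type spinal cord. Its genotype differences were 0.79, opposite in sign to the first probe, and -0.31. The lower level of Htr4 in brainstem/cerebellum thus holds for 1 of 2 probes, and in spinal cord the probes shared a direction but not a size. Under the normexp corrections no Htr4 call remained, with -0.46 and -0.50 in brainstem/cerebellum and -0.55 and -0.83 in spinal cord.

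Htr7, the Gs-coupled receptor linked to circadian timing and to spinal pain control, had values of 0.38 on transgenic and 0.80 on wild-type brainstem/cerebellum and of 0.62 on transgenic and 1.44 on wild-type spinal cord. Wild-type spinal cord, the array on the other slide, was the highest, as on the brightest probes of Htr2c, Htr3a and Htr4. The genotype differences of -0.42 and -0.81 (1.76-fold lower) did not reach 2-fold, although they were 4.15 and 8.08 times the SD between 2 spots. A second probe, 1477 bases into the transcript, differed the other way, by 0.56 and 0.40, and the remaining one was below background on all 4 arrays. The direction therefore depended on the probe for Htr7 in both tissues and for Htr4 in brainstem/cerebellum. For both genes the array with the highest value also depended on the probe.

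**Figure D2:**
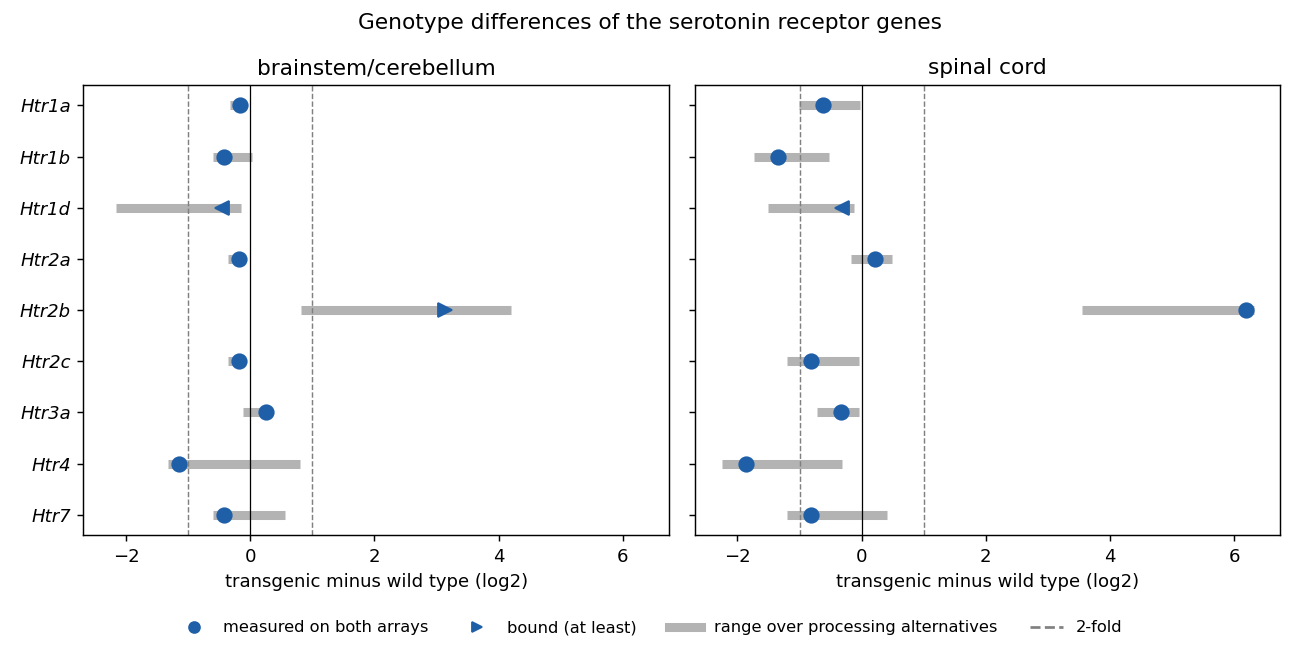
Transgenic minus wild type (log2) for each of the 9 genes in brainstem/cerebellum (left) and spinal cord (right); circles are differences measured on both arrays, triangles are bounds, grey bars span the processing alternatives and dashed lines mark 2-fold. The Htr2b bars stay above 0 in both tissues, from 0.81 and from 3.54, while those of Htr1b, Htr3a, Htr4 and Htr7 cross 0 in brainstem/cerebellum and those of Htr2a and Htr7 in spinal cord. A bound for Htr2b can only lie above 0 where wild type is below background, as in brainstem/cerebellum and, on the second probe, in spinal cord.

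Counted over the 9 genes, Htr2b was at least 2-fold higher and Htr4 at least 2-fold lower in transgenic brainstem/cerebellum, where 4.22% of all genes were called in either direction, 3.61% higher and 0.616% lower. In spinal cord, where 16.6% of all genes were called, 9.75% higher and 6.89% lower, Htr2b was higher and Htr1b and Htr4 were lower. The members were chosen with these differences known, so nothing is read from their share. With bounds included, 7 of 9 members were below 0 in each tissue, with medians of -0.19 and -0.62, the first of which turned to 0.20 when the second probe was used for genes with several (6 genes with a value) and lay between -0.36 and -0.12 under the other alternatives. The second was -0.29 under both normexp corrections and with the second probe, -0.32 with the mean of the probes and -1.01 with spike-in scaling. The median over all genes measured on both arrays was -0.07 and -0.05. Scaling on the spike-in controls moved the median of all genes in spinal cord to -0.44 and the share of higher among all calls from 58.6% to 26.5%. With that scaling 1 member was higher and 5 were lower in spinal cord: Htr2b kept a difference of 5.80, Htr1b was at -1.73 and Htr4 at -2.26, and Htr1a (-1.01), Htr2c (-1.20) and Htr7 (-1.20) passed 2-fold. Median scaling moved that share in brainstem/cerebellum from 85.4% to 72.0% and the median of all genes to -0.25.

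The tissue comparison in wild type called 1 of 9 members, Htr3a, against 12.5% of all genes, 7.44% higher and 5.01% lower. In the transgenic samples it called 3, with Htr2b and Htr3a higher and Htr1b lower in spinal cord (-1.62, or 3.07-fold), against 18.1% of all genes, 11.0% higher and 7.08% lower. Each tissue comparison shares 1 array with each genotype comparison, so they are not independent of each other. Htr2c, Htr4 and Htr7 exceeded brainstem/cerebellum by 0.62, 0.66 and 0.64 in wild-type spinal cord, across slides. In the transgenic samples, within 1 slide, these differences were -0.01, -0.06 and 0.25.

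The genes whose values over the 4 arrays lay nearest to those of Htr2b were sought among 17528 genes well above background on transgenic spinal cord, by the Euclidean distance of centred log2 values raised to the background limit. The nearest 8 were Clca3a2 (distance 0.19), Gdf15 (0.30), Ear10 (0.47), Apoc4 (0.72), Ear12 (0.74), Gpnmb (0.81), Stra6l (0.85) and Gm10639 (0.85). Gdf15, a stress-induced secreted protein of the TGF-beta family, was measured on all 4 arrays and was 2.93 higher in transgenic brainstem/cerebellum and 6.36 higher in transgenic spinal cord. Gpnmb, a membrane glycoprotein of lysosome-rich phagocytes, was also measured on all 4 and was 2.39 and 5.32 higher. Apoc4, an apolipoprotein, was at least 2.38 and at least 6.30 higher. Ear10 and Ear12 are members of the eosinophil-associated ribonuclease family, whose near-identical copies 1 probe may not separate. The distances of Htr2b from the other 8 receptor genes ran from 4.86 for Htr2a to 6.50 for Htr4. With 4 arrays and many genes, such likeness is a description only.

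**Figure D3:**
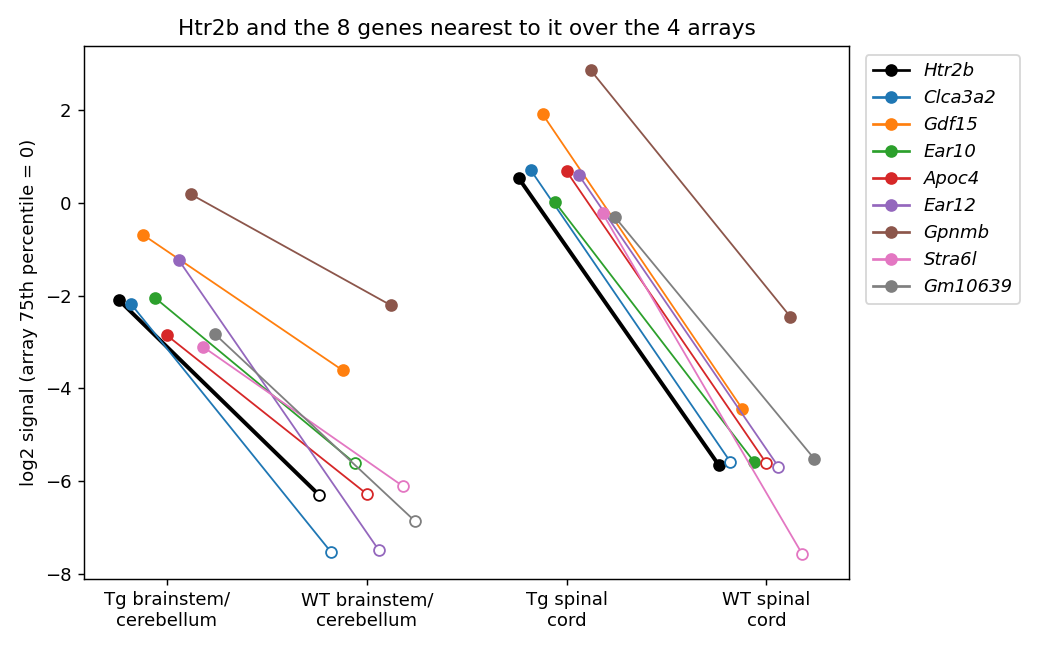
Log2 signal (each array's 75th percentile at 0) of Htr2b, in black, and of the 8 genes nearest to it over the 4 arrays, 1 array per group; points are set apart sideways for visibility, lines join the genotypes within a tissue, and open circles are not well above background. All 9 genes are higher on both transgenic arrays, and higher on transgenic spinal cord than on transgenic brainstem/cerebellum. The 8 were chosen for their likeness to Htr2b, so this shared order follows from the choice.

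Htr2b lies within the span of Psmd1, which encodes a subunit of the proteasome's regulatory cap, according to the RefSeq gene table. Psmd1 differed by -0.13 in brainstem/cerebellum and -0.35 in spinal cord. The next coding genes on either side, 2810459M11Rik and Armc9, differed by 0.13 and -0.07 in brainstem/cerebellum and by -0.55 and -0.47 in spinal cord. None of these 3 genes was called, so the difference of Htr2b was not shared by the genes around it.

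The other serotonin receptor genes on the array added 1 called genotype difference, that of Htr5b in spinal cord, where 6.89% of all genes were called lower. Of these 5 genes, Htr1f, a Gi-coupled receptor, and Htr5b, of the Htr5 family, were above background. Htr3b, which joins Htr3a in the channel, Htr5a and the Gs-coupled Htr6 were below the limit on all 4 arrays. Htr5b had values of -1.82 and -2.28 in transgenic and wild-type brainstem/cerebellum and of -4.42 and -2.96 in spinal cord, with differences of 0.45 and -1.46. Htr1f differed by -0.47 and 0.25. Between the transgenic tissues, spinal cord exceeded brainstem/cerebellum by 1.49 (2.81-fold) for Htr1f, while Htr5b was lower there (-2.59, or 6.04-fold), and both differences were called. The median of the pair, -0.01 in brainstem/cerebellum and -0.60 in spinal cord, turned to 0.06 and 0.05 under another background correction.

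Of 18 genes of serotonin synthesis, transport and breakdown, 2 were called lower and 0 higher in transgenic brainstem/cerebellum, and 3 higher and 1 lower in spinal cord, with medians of -0.25 and -0.15. The 2 in brainstem/cerebellum were Slc6a4, the serotonin reuptake transporter (-0.75 transgenic, 0.61 wild type, a difference of -1.36, with another probe at -0.59), and Tph2, the rate-limiting enzyme of neuronal serotonin synthesis (-1.11 and -0.08, a difference of -1.03). The 3 higher in spinal cord were Gch1, which starts the synthesis of the cofactor of tryptophan hydroxylase (1.20 and -1.22, a difference of 2.43), Ddc, the decarboxylase that forms serotonin (2.53 and 1.35, a difference of 1.18, with another probe at 1.27), and Tph1, the tryptophan hydroxylase of cells outside the brain. Tph1 was above background on transgenic spinal cord alone, at -3.58, a bound of 2.18. Slc18a2, the vesicular monoamine transporter, was lower there (-3.47 and -1.96, a difference of -1.52). Slc18a1, its relative, differed by -0.42 in brainstem/cerebellum and -0.82 in spinal cord. Its other probes ranged from 0.16 to 3.09 and from -0.57 to 3.25, so its direction depended on the probe. Over all genes, 3.61% were called higher and 0.616% lower in brainstem/cerebellum, and 9.75% and 6.89% in spinal cord. Nothing is read from the counts of this list.

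Beside these, 3 of 7 markers of serotonin neurons were called lower in transgenic brainstem/cerebellum, where 0.616% of all genes were called lower. All 7 were below 0 there with a median of -0.56, and their summed signal was 3.69 against 6.47. Tph2, Slc6a4, Slc18a2 and Fev stand on both lists. The remaining called marker was Gata3 (-1.17), a transcription factor also expressed outside serotonin neurons. Of 7 mast cell markers, 4 were called higher in transgenic spinal cord, where 9.75% of all genes were called higher. Cma1, Cpa3 and Mcpt4, proteases of mast cell granules, were above background on that array alone, with bounds of 4.32, 3.16 and 3.08. Tpsb2 differed by 1.09 in brainstem/cerebellum, the only call of this list there, and by 1.97 in spinal cord. Kit and Hdc, like Tpsb2 above background on all 4 arrays, differed by 0.25 and 0.51 in spinal cord and were not called. Fcer1a, a chain of the IgE receptor that mast cells carry, was below background on all 4. Mast cells are known to use Tph1, and the part of these cells in its level, or in that of Htr2b, was not tested.

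Of the signalling genes downstream of the receptors, 0 of 13 of the Gq arm, 0 of 11 of the Gi arm and 0 of 14 of the Gs arm were called in brainstem/cerebellum, where 4.22% of all genes were called, so nothing is read from these counts. In spinal cord 9.75% of all genes were called higher and 6.89% lower, and nothing is read from the counts there either. The Gq arm had 1 higher and 2 lower in spinal cord, with a median of -0.27. Itpr2, a calcium release channel of the endoplasmic reticulum, differed by 1.09, and the phospholipases Plcb2 and Plcb4 by -1.04 and -1.03. Another Plcb2 probe differed by 1.62 and the other Plcb4 probes by -0.89 to 0.38, so both directions depended on the probe, and the other Itpr2 probes differed by 0.41 to 0.42. The Gi arm had 0 higher and 2 lower of 10 above background, with a median of -0.61: Gnai2, a Gi alpha subunit, differed by -1.40 (another probe by 0.76) and Rgs4, which speeds the shut-off of Gi and Gq signals, by -1.32. The Gs arm had 1 of each, with a median of -0.47: Adcy7, an adenylyl cyclase of haematopoietic cells, differed by 1.14 and Pde4d, which degrades cyclic AMP, by -1.08, with its other probes between -0.80 and 0.74. The brainstem/cerebellum medians were 0.01, -0.16 and -0.20. The first turned to -0.17 with median scaling.

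Of 15 genes for receptor partners and regulators, 0 were called in brainstem/cerebellum and 2 were called lower in spinal cord. Of all genes, 4.22% were called in brainstem/cerebellum and 6.89% were called lower in spinal cord, so nothing is read from these counts. Adarb1, an adenosine deaminase that edits Htr2c transcripts, had values of 2.95 and 4.20 in transgenic and wild-type spinal cord, a difference of -1.25, while its other probes lay between -0.59 and 0.39. Grk2, a kinase that desensitises receptors, differed by -1.004, and by 0.05 on another probe. S100a10, also called p11, which binds Htr1b and Htr4 and brings them to the cell surface, differed by 0.36 and 0.97 (0.35 and 0.79 on another probe), short of 2-fold. The medians of this list were -0.08 and -0.06, and the second turned to 0.04 under cyclic loess.

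**Figure D4:**
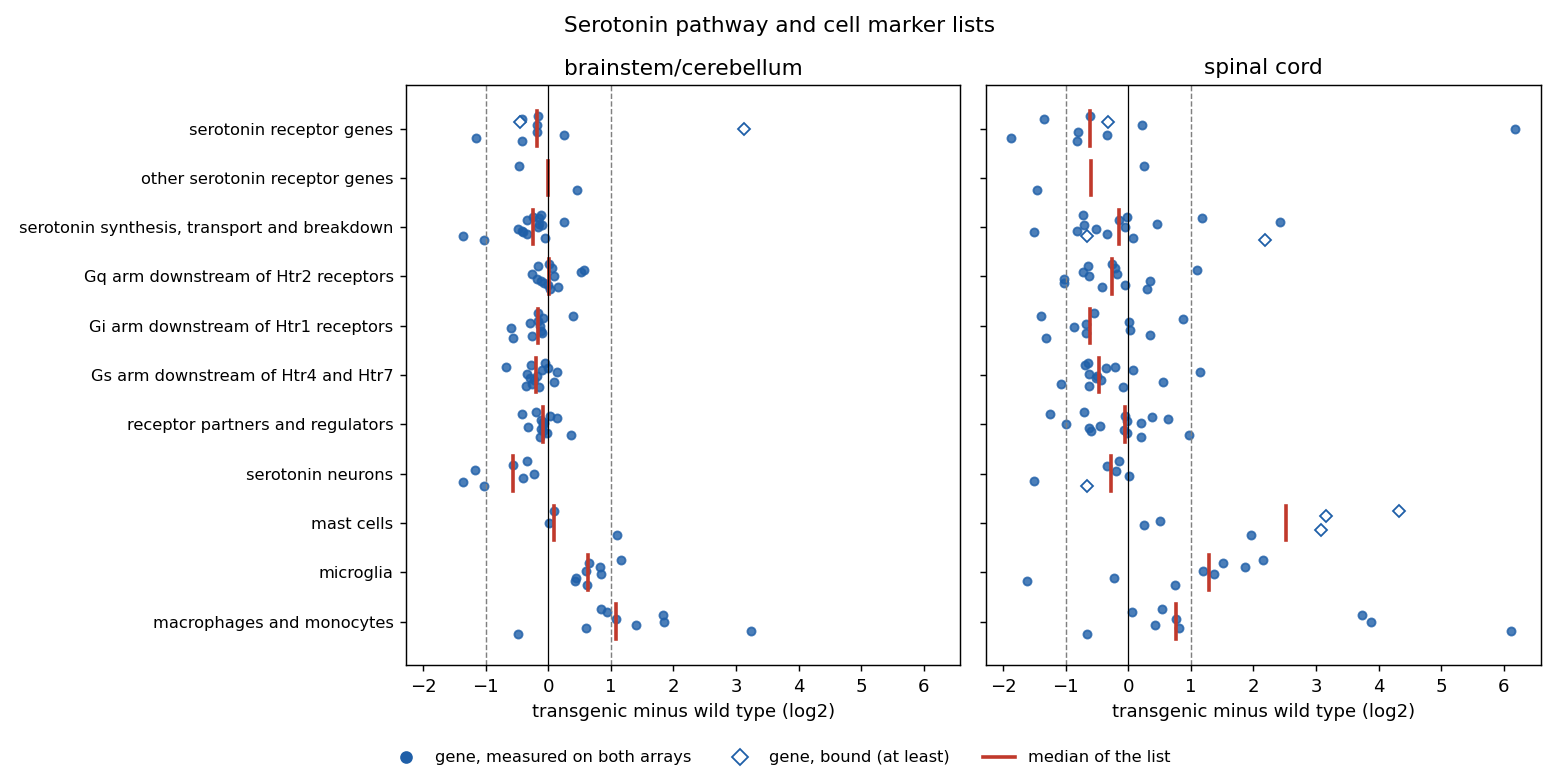
Transgenic minus wild type (log2) for the genes of each serotonin pathway list and of 4 cell marker lists in brainstem/cerebellum (left) and spinal cord (right); each point is 1 gene, open diamonds are bounds, red lines are list medians and dashed lines mark 2-fold. The medians of microglia (0.63 and 1.28) and of macrophages and monocytes (1.08 and 0.76) lie above 0 in both tissues, and those of the receptor genes (-0.19 and -0.62) lie below, except with each gene's second probe in brainstem/cerebellum (0.20).

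Some markers of microglia and of macrophages were higher in the transgenic samples and others were not. The shares over all genes were 3.61% higher and 0.616% lower in brainstem/cerebellum, and 9.75% and 6.89% in spinal cord. Of 8 microglial markers, 1 was called higher and 0 lower in transgenic brainstem/cerebellum, and 5 higher and 1 lower in spinal cord. The summed signal was 58.8 against 36.8 and 141 against 81.2, transgenic first. Aif1, a calcium-binding protein of microglia, differed by 1.16 and 2.15 and Cx3cr1, the fractalkine receptor, by 0.83 and 1.86, while in spinal cord Siglech differed by -1.62 and P2ry12 by -0.23. Of 10 markers of macrophages and monocytes, 5 and 3 were called higher and 0 lower. Their sums were 11.2 against 3.71 and 63.5 against 6.90. Ms4a7, a membrane protein of macrophages, differed by 3.24 and 6.12, Itgax by 1.86 and 3.88, and Cd68, a lysosomal protein of phagocytes, by 1.84 and 3.73. These 3 hold most of the sum in transgenic spinal cord. Another Itgax probe differed by 0.23 in brainstem/cerebellum, short of 2-fold, and its other probes by 1.53 to 2.89 in spinal cord. Pf4, a chemokine, differed by -0.48 and -0.66. Cd163 and Lyve1, of resident macrophages, differed by 0.05 and 0.42 in spinal cord. In brainstem/cerebellum they differed by 0.94 and 1.40, and Lyve1 was called higher there. Ccr2, which marks monocytes that enter from blood, was below background on all 4 arrays. The part of these cells in the level of Htr2b was not tested. The sum of 7 pan-neuronal markers was 237 against 258 and 185 against 243, with 0 called in either tissue, and their medians of -0.19 and -0.41 stood beside those of the receptor genes.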

How the data were processed

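Total RNA was extracted with TRIzol, column-purified, amplified and labelled with Cy3, per the labels' protocols, and 4 samples, 1 per group, were hybridised to 1-colour Agilent arrays. The scanner output that the authors deposited gives linear intensities per spot, background-subtracted and detrended by Feature Extraction, which is version 10.7.1.1 per the file headers and 9.5.1.1 per the submitters' processing notes. The authors' deposited series table also holds intensities. Its column medians are all 30.4, and its values follow a quantile normalization of the processed intensities (Pearson r = 0.999999, and 0.99999 for deviations from the probe mean), so that its scale and direction are known. It served as an alternative.

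Control spots and the 63 to 134 outlier-flagged spots per array were left out, and spots of 1 probe were averaged. Values are log2 of the intensity minus the array's 75th percentile, computed with Python 3.11.15, pandas 2.3.3 and numpy 2.4.6. The alternatives used R 4.3.3 with limma 3.58.1 (normexp with an offset of 50, quantile, cyclic loess), scaling on the median or on 7 spike-in control probes, other probe rules, filters and thresholds. With 1 array per group no test was run, and the number of arrays limits the precision. The calling of differences and bounds was tested on simulated data. Probe coordinates are of build mm9, per the file headers. Gene names and neighbours come from a RefSeq table of GRCm38.p6, whose build differs, and no coordinate was converted.

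The named genes are all 9 members, up to 4 genes of each list with the largest genotype difference, the 8 genes nearest to Htr2b and the genes around it. Slc18a1 is named because its probes disagreed. The members and lists were chosen with earlier results of these data known. Of 16 marker lists, those not described in the report are given in the closing section.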

Additional observations from a re-analysis of the deposited data

Results flagged for a closer look

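The genotype difference of Htr2a was -0.18 in brainstem/cerebellum and 0.22 in spinal cord, 0.39 apart in opposite directions. The SD of such a difference between 4 spots was 0.34, and with spike-in scaling the spinal cord value of Htr2a was -0.17, on the same side as the other tissue. The genotype difference of Htr3a was 0.26 in brainstem/cerebellum and -0.33 in spinal cord, and subtracting the first from the second gave -0.59, with the same SD of 0.34. With 1 array per group neither difference between tissues was tested.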

How the results depend on the processing

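No paired analysis was possible because there was 1 array in each group, and no replicate could be left out for the same reason. In brainstem/cerebellum 2 receptor genes were called. The count was 1 under both normexp corrections, with genes above background on both arrays only, with the mean of the probes and at 3-fold, and 0 with the second brightest probe, an alternative chosen after seeing the data. In spinal cord 3 were called, against 6 with spike-in scaling and at 1.5-fold and 1 under both normexp corrections and with the second probe. The wild-type tissue count of 1 became 0 under both normexp corrections and with the second probe and 5 at 1.5-fold, and the transgenic tissue count of 3 became 1 under both normexp corrections and with the second probe. The difference of Htr2b in brainstem/cerebellum, 3.14, was 1.31 and 1.35 under normexp followed by 75th percentile scaling and quantile normalization, 4.20 without a background filter, 1.97 with the mean of the probes and 0.81 with the second probe. It has no value when both arrays must be above background. In spinal cord it was 3.79 and 3.54 under normexp in the same order, 5.17 with the mean of the probes and 3.97 with the second probe, against 6.18. Normexp adds an offset of 50 to every signal, which by construction shrinks differences of dim probes. The difference of Htr4 in brainstem/cerebellum turned to 0.79 with the second probe, and the cause was not tested. Htr2b kept its direction in both tissues under every alternative that gave a value, 11 in brainstem/cerebellum and 12 in spinal cord. Where wild-type Htr2b is below background, as in brainstem/cerebellum and, on the second probe, in spinal cord, a bound can only lie above 0. The direction of such bounds is therefore no check. Members with signals near the background limit, Htr1d and wild-type Htr2b, have only bounds or values close to it.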

Other observations

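For the marker lists below, the shares called over all genes were 3.61% higher and 0.616% lower in brainstem/cerebellum, and 9.75% and 6.89% in spinal cord. Nothing is read from the counts of these lists. Of 7 fibroblast and meningeal markers, 2 were called higher in transgenic brainstem/cerebellum and 3 in spinal cord, with 0 lower and medians of 0.34 and 0.35. Astrocyte markers (6) had 2 higher and 0 lower in brainstem/cerebellum and 1 of each in spinal cord, with medians of 0.20 and 0.34. Oligodendrocyte markers (7) had 0 called in either tissue, with medians of 0.04 and 0.08. Endothelial markers (6) had 1 lower in each tissue, with medians of -0.16 and -0.37. Motor neuron markers (6) had 0 called and medians of -0.65 and -0.73. Skeletal muscle markers (6) had 0 called in brainstem/cerebellum and 3 lower in spinal cord, with a median of -1.003 there. Their summed signals were 1.32 in the transgenic against 2.77 in the wild-type cord. Whether they came from tissue dissected with the cord was not tested. Of 7 sensory ganglion markers, 1 was higher and 1 lower in spinal cord, and their sums there were 4.28 and 11.01. Forebrain markers (6) summed to no more than 0.81 on any array. Choroid plexus markers (7) had 0 called in brainstem/cerebellum and 2 lower in spinal cord. The cerebellar list (8) had 0 called in brainstem/cerebellum and 1 of each in spinal cord, and the spinal cord list (8) had 0 and 1 lower.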
